A study of Mus musculus with 6 samples.

Results

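The circadian clock genes *Per1*, *Per2*, *Per3*, *Arntl*, *Clock*, *Cry1*, *Nr1d1*, *Nr1d2*, *Dbp* and *Tef* were found by their symbols in the tag counts of every library and make up 10 of 20327 gene symbols. Of these, 8 reached 10 tags or more in 3 or more of the 6 libraries and were tested together with all 9334 genes that met this rule, whereas *Per3* and *Dbp* did not. The genes were compared between IL-11+ and IL-11- fibroblasts of the inflamed colon, as the paper names the sorted EGFP+ and EGFP- cells (n = 3 libraries per group). Both groups came from *Il11-Egfp* reporter mice of the C57BL/6 strain, 9 to 15 weeks of age. The reporter is a bacterial artificial chromosome in which the *Il11* promoter drives EGFP. The mice drank 1.5% dextran sulfate sodium (DSS), which injures the colonic epithelium, for 5 days and plain water thereafter, and colons were taken on day 7. Digested cells negative for Ter119, CD45, CD31 and EpCAM were divided by EGFP, so that both groups shared genotype and treatment. The methods name 3 mice. The hour at which colons were taken is not given in the sources used here, and neither is the mouse behind each library.

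The molecular clock is a feedback loop of transcription factors that runs in nearly every cell, fibroblasts included. CLOCK and BMAL1, the product of *Arntl*, bind E-box elements as a pair and activate the *Per* and *Cry* genes, whose proteins then inhibit the pair. REV-ERBα and REV-ERBβ, encoded by *Nr1d1* and *Nr1d2*, are nuclear receptors that repress *Arntl* through ROR elements, and DBP and TEF are basic leucine zipper factors that carry the rhythm to target genes through D-box elements. Because most of these genes cycle over the day, a single time point gives a level and not a rhythm.

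The assay was 5′Tag-seq, which captures polyA RNA, amplifies its cDNA and counts tags that start near the 5′ end of a transcript. Values of single libraries are given in the order of replicates 1, 2 and 3 throughout. Depth was even, with totals of 1057170, 1078179 and 1169817 tags in the IL-11- and 1046538, 1022851 and 1049048 in the IL-11+ libraries. Levels are in CPM, tag counts scaled to a common depth with the TMM factors of edgeR. A level of 3 tags, taken as the floor of detection, stood at 2.46 to 3.18 CPM depending on the library. Molecular identifiers are not described, so floors and counting intervals cover counting error only. In bulk RNA of this kind, fewer cells that express a gene and less RNA per cell cannot be told apart.

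Among the clock genes, *Tef* alone was called lower in IL-11+ fibroblasts in the fit without a replicate block. With the block, *Tef*, *Nr1d1* and *Nr1d2* were called lower, 3 of 8 against 11.2% of all tested genes. None was called higher in either fit. A gene is said to be called where its adjusted p was under 0.05, without the block unless stated. A difference of over 2-fold, which the study's methods also asked for, is counted apart. By both thresholds 1 of 8 tested clock genes was lower, where 6.37% of all 9334 tested genes were, and 0 of 8 were higher, where 3.44% were. With the adjusted p alone the count was again 1 of 8 lower, against 8.7% of all tested genes, and 0 of 8 higher, against 6.84%. By adjusted p, DESeq2 also called 1 clock gene lower, against 6.51% of all tested genes, and 0 higher, against 5.09%. With a block for the replicate number, 2 of 8 were lower by both thresholds (*Tef* and *Nr1d1*), against 6.94% of all tested genes, and 0 higher, against 3.61%. An unadjusted p under 0.05 was reached by 3 of 8 lower (*Tef*, *Nr1d1* and *Nr1d2*), against 14.5% of all tested genes, and by 0 of 8 higher, against 12.2%. The log2 fold change was below 0 for 7 of the 8, all but *Cry1*, with a median of -0.23, compared with 4781 of 9334 and a median of -0.01 over all tested genes. The 10 genes summed to 503, 549 and 459 CPM in the IL-11- and 407, 385 and 399 CPM in the IL-11+ libraries, and *Per1* was the gene with most tags.

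**Figure D1:**
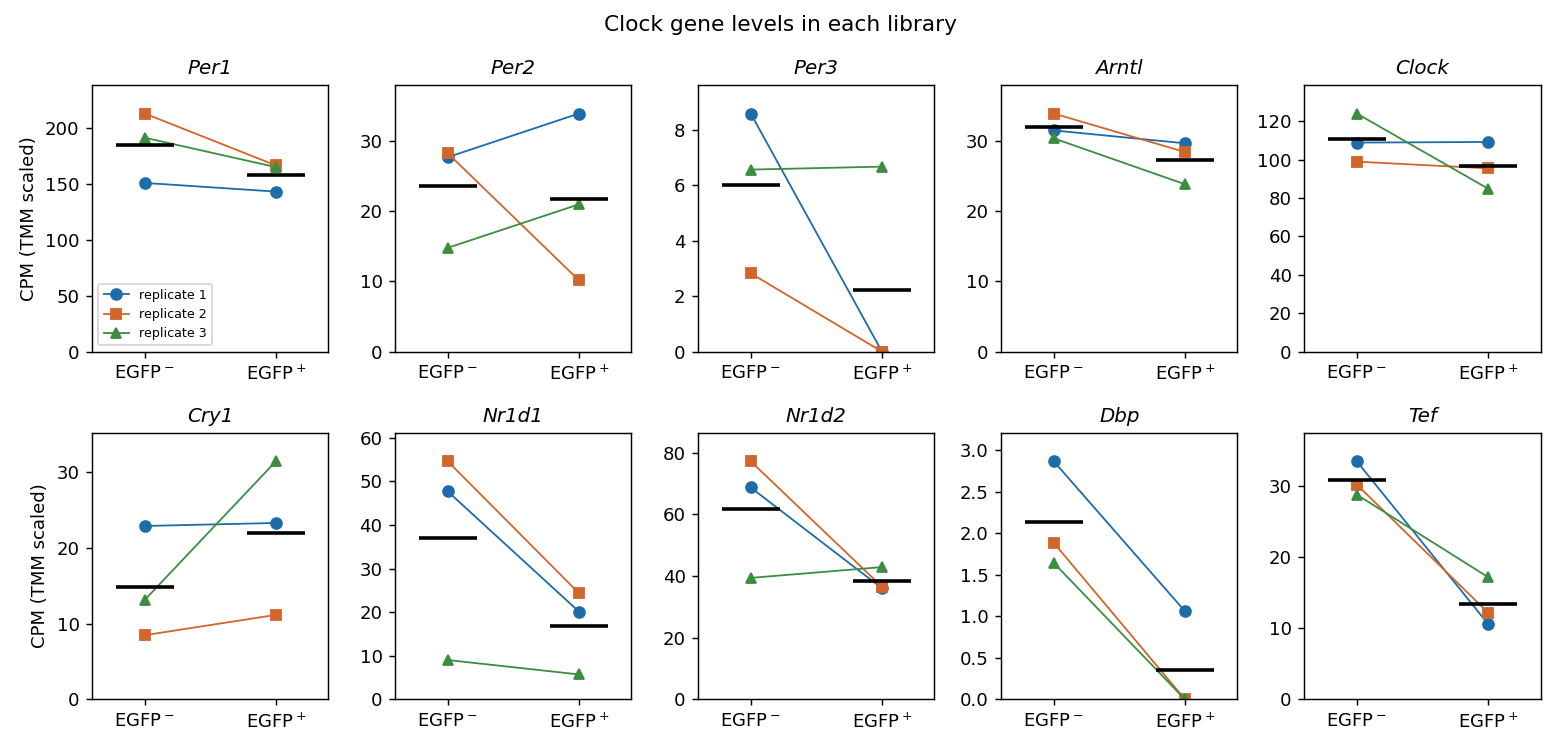
Each panel plots 1 clock gene in CPM after TMM scaling (vertical axis, from 0, with its own range) in the EGFP- and EGFP+ library of each replicate number; lines join libraries with the same number and black bars are group means (n = 3). *Tef* was lower in the EGFP+ library of all 3 numbers and its groups did not overlap, and both *Nr1d1* libraries of replicate 3 lay below those of replicates 1 and 2 in their group.

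*Tef*, an output factor of the clock, fell 2.28-fold in IL-11+ fibroblasts. It had 35, 32 and 35 tags in the IL-11- and 10, 12 and 18 in the IL-11+ libraries. The highest IL-11+ library thus had fewer tags than the lowest IL-11- library, and the groups stayed apart after scaling. Mean levels were 30.8 ± 2.40 CPM in IL-11- and 13.3 ± 3.43 CPM in IL-11+ fibroblasts (SD, n = 3 each). The log2 fold change was -1.19 (SE 0.30, 95% interval -1.82 to -0.56), with an adjusted p of 0.0100 (edgeR quasi-likelihood test, Benjamini-Hochberg), and *Tef* was lower in 3 of 3 same-numbered pairs. Its call held in each of 15 alternative settings, with log2 fold changes from -1.42 to -1.05 and adjusted p-values from 0.00359 to 0.0462. The other factors of its family gave few tags or no call: *Dbp* was at the floor of detection, and *Hlf* had 43, 17 and 19 tags in the IL-11- and 11, 23 and 18 in the IL-11+ libraries. For *Hlf* the log2 fold change was -0.46 (SE 0.39, adjusted p = 0.506; edgeR quasi-likelihood test, Benjamini-Hochberg) and turned to 0.14 without IL-11- replicate 1.

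The REV-ERB genes of the repressive side loop had lower means in IL-11+ fibroblasts, but had an adjusted p under 0.05 in some settings only, and *Nr1d2* was under 2-fold in all of them. *Nr1d1* had 50, 58 and 11 tags in the IL-11- and 19, 24 and 6 in the IL-11+ libraries. Replicate 3 was low in both groups, so that the groups overlapped, although the IL-11+ library was the lower one in 3 of 3 same-numbered pairs, at 0.42, 0.45 and 0.63 of its IL-11- partner. Means were 37.1 ± 24.6 and 16.7 ± 9.78 CPM (SD, n = 3 each). The log2 fold change of *Nr1d1* was -1.14 (SE 0.50), with an adjusted p of 0.150 (edgeR quasi-likelihood test, Benjamini-Hochberg). Blocked by replicate number, the same test gave -1.12 and an adjusted p of 0.00392. Without IL-11- replicate 3 it gave -1.62 and 0.00549, and without a filter on low genes -1.10 and 0.00637, so that it passed both thresholds in 3 of 15 alternative settings. In the others its adjusted p reached 0.552 (DESeq2), and its log2 fold change shrank to -0.71 without IL-11+ replicate 3 and to -0.73 without IL-11- replicate 2, both under 2-fold.

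*Nr1d2* had 72, 82 and 48 tags in the IL-11- and 34, 36 and 45 in the IL-11+ libraries. After scaling, IL-11- replicate 3 (39.4 CPM) fell among the IL-11+ libraries, whereas replicates 1 and 2 lay above all of them. Means were 61.8 ± 19.9 and 38.5 ± 3.83 CPM (SD, n = 3 each), and the IL-11+ library was lower in 2 of 3 same-numbered pairs. The log2 fold change was -0.67 (SE 0.25), with an adjusted p of 0.0827 (edgeR quasi-likelihood test, Benjamini-Hochberg), 0.0389 with the replicate block and 0.00989 without IL-11- replicate 3, where it stood at -0.92. As it was under 2-fold in these settings too, *Nr1d2* passed both thresholds in 0 of 15 alternative settings. In the other 13 its adjusted p was over 0.05, at 0.191 by DESeq2, 0.225 without IL-11- replicate 1 and 0.352 without IL-11- replicate 2, where it stood at -0.47. With the block, 3 of 8 clock genes (*Tef*, *Nr1d1* and *Nr1d2*) had an adjusted p under 0.05 and a log2 fold change below 0, compared with 11.2% of all tested genes. Of 50-nt windows in the first 300 nt of annotated *Nr1d2* transcripts, 50 of 696 were also found in a transcript of the gene model *AC170187.1*, so that some *Nr1d2* tags may be shared. No such window was shared for the other 9 clock genes.

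The activators of the loop were measured more evenly, and neither was called. *Arntl* had 33, 36 and 37 tags in the IL-11- and 28, 28 and 25 in the IL-11+ libraries. Its groups did not overlap, but the difference was within the error of the fit, with means of 31.9 ± 1.81 and 27.3 ± 3.07 CPM (SD, n = 3 each) and a difference of -0.23 on the log2 scale (SE 0.25, adjusted p = 0.623; edgeR quasi-likelihood test, Benjamini-Hochberg). Groups that did not overlap, with IL-11+ lower, were seen for 2 of 8 tested clock genes (*Arntl* and *Tef*) and for 16.7% of all tested genes. None of the 8 had IL-11+ libraries all above IL-11- libraries, compared with 14.5% of all tested genes. *Clock* had 114, 105 and 151 tags in the IL-11- and 103, 94 and 89 in the IL-11+ libraries, and its groups overlapped. The log2 fold change of *Clock* was -0.20, and its 95% interval of -0.57 to 0.17 leaves out a 2-fold difference in either direction, as does the interval of *Arntl* from -0.75 to 0.30.

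Of the genes that repress CLOCK and BMAL1, *Per1* had the most tags and none was called. *Per1* had 158, 226 and 233 tags in the IL-11- and 135, 164 and 173 in the IL-11+ libraries. The groups overlapped because IL-11- replicate 1 lay among the IL-11+ libraries, while the IL-11+ library was lower in 3 of 3 same-numbered pairs. Means were 185 ± 31.5 and 158 ± 13.1 CPM (SD, n = 3 each), and the log2 fold change was -0.23 (95% interval -0.59 to 0.14, adjusted p = 0.452; edgeR quasi-likelihood test, Benjamini-Hochberg). *Per2* had 29, 30 and 18 tags in the IL-11- and 32, 10 and 22 in the IL-11+ libraries. The highest and the lowest level of *Per2* were both in IL-11+ libraries, and the log2 fold change of -0.11 (95% interval -0.90 to 0.67) changed sign when any 1 of 3 libraries was left out, to 0.02 without IL-11- replicate 1, 0.05 without IL-11- replicate 2 and 0.23 without IL-11+ replicate 2. *Cry1* had 24, 9 and 16 tags in the IL-11- and 22, 11 and 33 in the IL-11+ libraries. This was the 1 tested clock gene with a log2 fold change above 0 (0.58, 95% interval -0.27 to 1.42, adjusted p = 0.399; edgeR quasi-likelihood test, Benjamini-Hochberg). It was higher in 3 of 3 same-numbered pairs, at 1.018, 1.317 and 2.395 times its IL-11- partner, although the groups overlapped, and its log2 fold change ran from 0.21 to 1.01 with 1 library left out. The intervals of *Per2* and *Cry1* are wide, and the interval of *Cry1* includes a 2-fold difference.

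*Per3* and *Dbp* were near or under the limit of detection and did not meet the filter of the main fit. *Per3* had 9, 3 and 8 tags in the IL-11- and 0, 0 and 7 in the IL-11+ libraries. A count of 0 allows up to 3.69 tags (95% exact Poisson interval), and IL-11+ replicate 3 had nearly as many tags as the upper IL-11- libraries. A two-sided exact permutation test of the *Per3* levels gave p = 0.3, where 0.1 is the smallest value that 3 libraries against 3 allow. Fitted without a filter on low genes, *Per3* stood at -1.285 on the log2 scale (SE 0.731, adjusted p = 0.383), and with a filter of 5 tags in 3 libraries at -1.305 (SE 0.824, adjusted p = 0.359; both edgeR quasi-likelihood tests, Benjamini-Hochberg). *Dbp*, a gene whose transcript cycles strongly in many tissues, had 3, 2 and 2 tags in the IL-11- and 1, 0 and 0 in the IL-11+ libraries. All 6 libraries were at or under the floor of 3 tags, so no fold change is given for *Dbp*. Its IL-11+ levels lay below its IL-11- levels without overlap, the permutation test gave the smallest possible p of 0.1, and the fit without a filter gave an adjusted p of 0.474 (edgeR quasi-likelihood test, Benjamini-Hochberg).

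**Figure D2:**
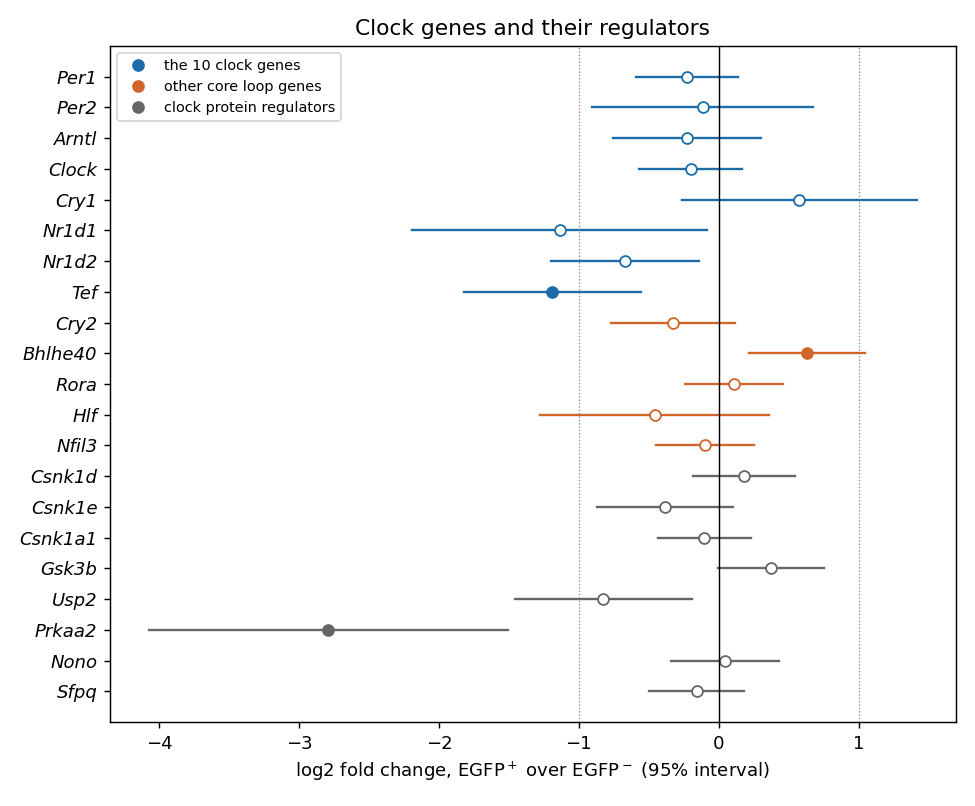
Points are log2 fold changes of IL-11+ (EGFP+) over IL-11- (EGFP-) fibroblasts (horizontal axis) for the tested clock genes, other tested core loop genes and 8 regulators of clock proteins, with 95% intervals as bars; filled points had an adjusted p under 0.05 and dotted lines mark a 2-fold difference. *Tef* at -1.19 and *Prkaa2* at -2.79 lay below 0 and *Bhlhe40* at 0.63 above it, and the other genes shown were not called in this fit without a replicate block. *Prkaa2* met the filter through its IL-11- libraries only. With its IL-11+ level set at the floor of detection, the difference was 4.09-fold.

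Of 11 further genes of the core loop, 5 were tested, and *Bhlhe40* was the 1 gene called, by the adjusted p alone. It was higher, as were 6.84% of all tested genes, and 0 of the 5 were lower, against 8.7%. *Bhlhe40* encodes DEC1, which competes with CLOCK and BMAL1 for E-boxes and also responds to other signals. It had 314, 339 and 274 tags in the IL-11- and 507, 438 and 340 in the IL-11+ libraries. All IL-11+ libraries lay above all IL-11- libraries, and the log2 fold change was 0.63 (SE 0.20, adjusted p = 0.0358; edgeR quasi-likelihood test, Benjamini-Hochberg). The call was lost when scaling used library size only (0.54, adjusted p = 0.0542) and when any 1 library other than IL-11+ replicate 3 was left out. Without IL-11- replicates 1, 2 and 3 the adjusted p was 0.0695, 0.0568 and 0.135, at log2 fold changes of 0.68, 0.74 and 0.49. Without IL-11+ replicates 1 and 2 it was 0.171 and 0.106, at 0.46 and 0.62. With the replicate block, *Bhlhe40* stood at 0.62 with an adjusted p of 0.000909 (all by edgeR's quasi-likelihood test). Its change is under 2-fold. Log2 fold changes were -0.10 for *Nfil3*, the repressor that opposes DBP and TEF at D-boxes, 0.11 for *Rora*, which opposes REV-ERB at ROR elements, and -0.33 for *Cry2*, the partner of *Cry1*. The 5 tested genes had a median of -0.10, and 0 were called lower by edgeR or by DESeq2 or had an unadjusted p under 0.05 in that direction. Genes that did not meet the filter included *Npas2*, *Arntl2*, *Ciart*, *Bhlhe41* and *Rorb*.

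Of 14 genes whose products modify or degrade clock proteins, 13 were tested, and *Prkaa2* was the 1 gene called. It was lower, as were 8.7% of all tested genes by the adjusted p, and 0 of the 13 were higher, against 6.84%. *Prkaa2* encodes a catalytic subunit of AMP-activated protein kinase, which marks CRY1 for degradation. It had 15, 12 and 14 tags in the IL-11- and 3, 2 and 0 in the IL-11+ libraries. The gene thus met the filter through its IL-11- libraries only. The IL-11+ libraries were all at or under the floor, and the pooled level was 7.34 times as high in IL-11- fibroblasts (95% counting interval 2.9 to 23.8). The log2 fold change of *Prkaa2* was -2.79 (SE 0.61, adjusted p = 0.00348; edgeR quasi-likelihood test, Benjamini-Hochberg), and the same test over all 20327 genes, with no filter, gave -2.75 and an adjusted p of 0.000477. With 1 library left out the log2 fold change ran from -3.49 to -2.20, and with the IL-11+ level set at the floor the difference was 4.09-fold. *Usp2*, a deubiquitinase that acts on PER1 and BMAL1 and is itself under clock control, was named after its values were seen. It had 41, 65 and 84 tags in the IL-11- and 17, 28 and 51 in the IL-11+ libraries, lower in 3 of 3 same-numbered pairs although the groups overlapped. Its log2 fold change of -0.82 had an adjusted p of 0.0754 (edgeR quasi-likelihood test, Benjamini-Hochberg), 0.00497 with the replicate block, 0.0230 without a filter on low genes, 0.0373 without IL-11- replicate 1 and 0.00744 without IL-11+ replicate 3. The difference was over 2-fold in the last 2 of these 4 settings only. In the other 11 of 15 alternative settings its adjusted p was over 0.05, at 0.139 by DESeq2 and 0.206 to 0.279 without any 1 of the other 4 libraries, where the log2 fold change shrank to as little as -0.54. The casein kinase genes *Csnk1a1* and *Csnk1d*, whose products phosphorylate PER proteins, stood at -0.10 and 0.18, *Sfpq* at -0.16 and *Gsk3b* at 0.38, none of them called.

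*Nr1d1* also differed between replicate numbers, and this was tested after its values had been seen. In the fit with group and replicate number, *Nr1d1* of replicate 3 stood at -2.18 (log2) and that of replicate 2 at 0.22 relative to replicate 1 over both groups, with an adjusted p of 0.000143 for the replicate number (edgeR quasi-likelihood test, Benjamini-Hochberg). This was 1 of 8 tested clock genes, against 1.96% of all tested genes (183 of 9334). DESeq2's likelihood ratio test, adjusted by Benjamini-Hochberg, called 54 genes for the replicate number and gave *Nr1d1* no adjusted p because of its own filter on low genes. Without that filter its adjusted p for *Nr1d1* was 0.0611, so that the call rests on edgeR. The next smallest adjusted p among the clock genes by edgeR's quasi-likelihood test was 0.281, for *Cry1*, and *Nr1d2*, *Tef* and *Arntl* were at 0.783, 0.986 and 0.961.

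The glucocorticoid response genes follow the daily and stress-related rise of corticosterone. Of these, 4 of 8 had an adjusted p under 0.05 for the replicate number by edgeR's quasi-likelihood test, against 1.96% of all tested genes. *Tsc22d3*, encoding GILZ, had 169, 106 and 46 tags in the IL-11- and 45, 31 and 10 in the IL-11+ libraries. As with *Nr1d1*, replicate 3 was the lowest in both groups, and the adjusted p for the replicate number was 1.14e-06 (edgeR quasi-likelihood test, Benjamini-Hochberg) and 0.000232 by DESeq2. *Zbtb16* had 605, 410 and 228 tags in the IL-11- and 258, 232 and 157 in the IL-11+ libraries, and *Fkbp5*, named after its values were seen, had 156, 84 and 45 and 96, 82 and 58 tags in the same order. Replicate 3 was again the lowest in both groups for these genes and for *Mt2*, and it was the lowest in both groups for 96 of the 183 genes called. Other lists also held genes called for the replicate number, beside the same 1.96% of all tested genes. These were 3 of 10 pericyte and smooth muscle markers (*Acta2*, *Myh11* and *Kcnj8*, adjusted p of 0.00141, 0.0292 and 0.0257) and 1 of 10 early response genes (*Atf3*, 0.000134), all by edgeR's quasi-likelihood test. Relative to replicate 1, replicate 3 stood at 1.166 for *Acta2*, 0.92 for *Myh11*, -0.84 for *Kcnj8* and -0.72 for *Atf3* (log2). DESeq2's likelihood ratio test called *Acta2* and *Atf3* (adjusted p of 0.0135 and 7.86e-05) and not *Myh11* or *Kcnj8*. What set replicate 3 apart was not tested. Between the groups, *Tsc22d3* (-1.76, adjusted p = 0.00916) and the clock-linked factor gene *Klf9* (-0.60, adjusted p = 0.0169) were lower and *Mt2* (0.94, adjusted p = 0.00560) was higher in IL-11+ fibroblasts (edgeR quasi-likelihood test, Benjamini-Hochberg). The call of *Tsc22d3* was lost with DESeq2 (adjusted p = 0.183) and without IL-11- replicate 1 (0.0873), and that of *Klf9* without IL-11- replicate 1 (0.0671), IL-11- replicate 2 (0.0910) or IL-11+ replicate 2 (0.103). *Zbtb16* stood at -0.80 with an adjusted p of 0.0738, both by edgeR, and was called in 4 of 15 alternative settings. Its adjusted p was 0.000250 with the replicate block, 0.423 by DESeq2 and 0.454 without IL-11- replicate 1, where the log2 fold change shrank to -0.38. The receptor gene *Nr3c1* itself stood at -0.12, *Errfi1* at -0.29 and *Sgk1* at 0.11, which turned to -0.03 without IL-11- replicate 3 and -0.07 without IL-11+ replicate 1. The median of the 8 genes was -0.21.

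**Figure D3:**
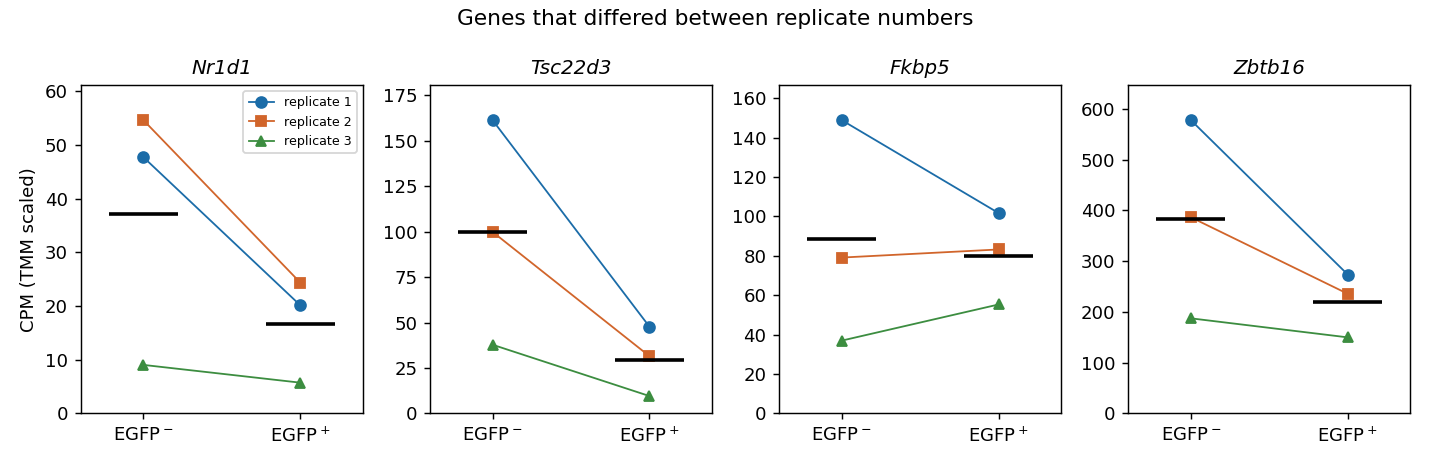
CPM after TMM scaling (vertical axes, from 0) of *Nr1d1* and 3 glucocorticoid response genes in EGFP- and EGFP+ libraries; lines join libraries with the same replicate number and black bars are group means (n = 3). In all 4 panels the libraries of replicate 3 are the lowest of their group.

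*Per1* is an early response gene as well as a clock gene, since its promoter answers to cAMP and glucocorticoid signals, but it was not called while most early response genes were. Of 10 such genes, all tested, 7 were lower in IL-11+ fibroblasts and 0 higher by the adjusted p alone, with a median log2 fold change of -0.94 beside -0.23 for *Per1*, where 8.7% of all tested genes were lower and 6.84% higher. DESeq2 called 8 lower, against 6.51% of all tested genes, and 0 higher. *Fos* (-0.95, adjusted p = 0.000826), *Fosb* (-0.97, 0.00102), *Junb* (-1.01, 0.000208) and *Atf3* (-2.19, 1.27e-05) were among those called (edgeR quasi-likelihood test, Benjamini-Hochberg), as were *Ier2*, *Zfp36* and *Nr4a1*. *Egr1* (-0.54) and *Dusp1* (-0.42) had adjusted p-values of 0.0554 and 0.0850, and of 0.00288 and 0.0193 with the replicate block, by the same test, and were called in 4 and 2 of 15 alternative settings, with adjusted p-values up to 0.248 and 0.243, and *Jun* stood at -0.22. The list summed to 29272, 30381 and 23561 CPM in the IL-11- and 15737, 17613 and 15579 CPM in the IL-11+ libraries, and *Egr1* had the most tags. The call of *Nr4a1* was lost without IL-11- replicate 2 or 3 or IL-11+ replicate 1 or 2, with edgeR adjusted p-values up to 0.118. Whether the early response genes and the clock genes moved together for a shared reason was not tested.

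For 7 of the tested clock genes, the closest of the 25 other tested genes of the clock lists was found by Pearson's r of log2 CPM over the 6 libraries, which share groups and replicate numbers. For these 7, the closest gene was never another of the 10 clock genes, but 18 of the 25 genes searched were outside the 10, and no comparison with chance was made. *Nr1d1* was closest to *Sfpq* (r = 0.942) and *Nr1d2* to *Csnk1a1* (r = 0.884). *Tef* and *Per1* were both closest to *Usp2* (r = 0.8 and 0.808). *Per2* was closest to *Csnk1e* (r = 0.836), *Clock* to *Prkaa2* (0.766) and *Cry1* to *Rora* (0.735). With 6 libraries and a search over 25 genes, these values are descriptions only.

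Markers of other cells of the gate moved with the group and are given here beside the clock genes. Of 10 pericyte and smooth muscle markers, all tested, 8 were lower in IL-11+ fibroblasts, against 8.7% of all tested genes by the adjusted p, and 2, *Abcc9* (0.66) and *Kcnj8* (0.71), higher, against 6.84%. The list summed to 4015, 3982 and 4237 CPM in the IL-11- and 992, 866 and 884 CPM in the IL-11+ libraries, and *Rgs5* had the most tags. *Notch3* and *Cnn1*, both lower, met the filter through their IL-11- libraries only. *Myh11*, the smooth muscle myosin gene, had 850, 943 and 1332 tags in the IL-11- and 18, 18 and 84 in the IL-11+ libraries. Among glial markers, *Gfap* was lower in IL-11+ fibroblasts, with 22, 23 and 26 tags in the IL-11- and 1, 0 and 1 in the IL-11+ libraries. It too met the filter through the IL-11- group only, and without a filter its adjusted p was 4.76e-11 (edgeR quasi-likelihood test, Benjamini-Hochberg). *Sox10* and *S100b* had 0 tags in all IL-11+ libraries. Whether pericytes, smooth muscle cells or glia carried the higher *Tef*, *Nr1d1*, *Nr1d2* or *Prkaa2* levels of the IL-11- libraries was not tested. Of 9 fibroblast markers, 4 were higher (*Col3a1*, *Pdpn*, *Thy1* and *Dcn*) and *Lum* was lower in IL-11+ fibroblasts, beside the same shares of all tested genes. Several of these calls were lost when 1 library fewer was used or in other settings. By edgeR, that of *Dcn* was lost without any library but IL-11+ replicate 3 (adjusted p up to 0.227), although its log2 fold change of 0.67 stayed at 0.61 to 0.75 in 4 of these 5 fits and fell to 0.39 without IL-11+ replicate 1. The call of *Dcn* was also lost without ribosomal genes (0.0709). Likewise by edgeR, the calls of *Lum* and *Kcnj8* were lost without IL-11- replicate 2 or 3 or IL-11+ replicate 1 or 2 (up to 0.198 and 0.192), that of *Abcc9* without IL-11- replicate 2 or 3 or IL-11+ replicate 1 (up to 0.0831) and that of *Thy1* without IL-11- replicate 2 (0.0638). The call of *Kcnj8* was also lost with library size only (0.0627), DESeq2 (0.0576) and thinned counts (0.0517). The fibroblast list, led by *Dcn*, summed to 22122, 22107 and 24635 CPM in the IL-11- and 42227, 33957 and 30313 CPM in the IL-11+ libraries.

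Markers of cells outside the gate, other than hemoglobin, had few tags. *Epcam* had 1 tag in IL-11- replicate 1 and in IL-11+ replicate 3 and 0 elsewhere, and *Pecam1* had 1 tag in IL-11- replicate 2 only. The epithelial list, led by *Lgals4*, summed to at most 44.3 CPM in a library and the endothelial list, led by *Tek*, to at most 40.1 CPM. *Lgals4* (-1.26) and *Tek* (-1.59) were the only genes of these lists tested, and both were lower in IL-11+ fibroblasts, with adjusted p-values of 0.0153 and 0.00850 (edgeR quasi-likelihood test, Benjamini-Hochberg). Their calls were lost without IL-11+ replicate 2 (edgeR adjusted p of 0.0678 and 0.0529), and that of *Lgals4* also without IL-11- replicate 3 or IL-11+ replicate 1. The leukocyte list, led by *Cd68*, summed to 14.0 to 29.7 CPM, with none of its 8 genes tested. Hemoglobin tags varied within groups, with 34, 0 and 141 tags of *Hbb-bs* in the IL-11- and 5, 0 and 9 in the IL-11+ libraries, and the erythroid list summed to 90.7, 0 and 305 CPM and to 18.0, 2.03 and 19.1 CPM in the same order. IL-11- replicate 3, which had the most hemoglobin tags, was also the library without which *Nr1d1* and *Nr1d2* had an adjusted p under 0.05, and a link between these values was not tested.

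The clock genes lie on 8 chromosomes of GRCm38 (GENCODE mouse release 21). *Tef* is at chr15:81802421-81826863 on the plus strand, *Nr1d1* at chr11:98767932-98775333 and *Nr1d2* at chr14:18204054-18239127, both on the minus strand. *Per1* lies on chromosome 11 as well, at chr11:69095217-69109960 (plus). *Arntl* is at chr7:113207465-113314126 (plus), *Clock* at chr5:76209868-76304792 (minus), *Cry1* at chr10:85131700-85185064 (minus), *Per2* at chr1:91415982-91459324 (minus), *Per3* at chr4:151003652-151044665 (minus) and *Dbp* at chr7:45705088-45710203 (plus).

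Promoter windows from RefSeq (GRCm38.p6), from 250 bases before to 50 bases after a transcription start, were found for 9 of the 10 genes, 14 windows in all, with none for *Per2*. They were searched on both strands for 4 motifs that do not overlap in these windows: the E-box CACGTG, the D-box TTATGTAA or TTACGTAA, the ROR element TAGGTCA and the cAMP response element TGACGTCA. Only these exact letters were counted, so shorter or variant forms of an element were not. An E-box was present in 4 of the 14 windows, those of *Cry1*, 1 of 2 of *Per1* and both of *Tef*, compared with 7.15% of 32851 promoter windows of all genes. Both *Tef* windows are shown because *Tef* was the clock gene called both with and without the replicate block. The bases before the start are printed 5′ to 3′ on the plus strand, with the E-box in capitals. The first window lies at chr15:81802423-81802672, where it overlaps an exon of 1 of 10 annotated *Tef* transcripts and the antisense gene model *Gm17597*, and the second at chr15:81811164-81811413, within the gene and outside its annotated exons.
Tef, first start: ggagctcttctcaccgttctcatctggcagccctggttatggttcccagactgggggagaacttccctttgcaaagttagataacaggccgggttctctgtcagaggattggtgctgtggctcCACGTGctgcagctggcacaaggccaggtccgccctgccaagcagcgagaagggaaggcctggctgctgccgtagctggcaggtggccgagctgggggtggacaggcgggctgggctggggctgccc
Tef, second start: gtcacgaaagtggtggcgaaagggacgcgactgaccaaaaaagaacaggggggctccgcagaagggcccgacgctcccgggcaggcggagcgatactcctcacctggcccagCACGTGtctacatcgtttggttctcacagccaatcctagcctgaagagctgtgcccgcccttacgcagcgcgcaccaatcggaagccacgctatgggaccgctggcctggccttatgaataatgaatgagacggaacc
The E-box of these windows begins 127 and 138 bases before the start. Tags are counted per gene, so the start that gave the *Tef* tags is not known. Neither *Nr1d1* nor *Nr1d2* had any of the 4 motifs in its window.

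D-box letters, the element that TEF binds, were found in the *Per3* window only, 2 times, compared with 1.06% of all windows. A ROR element was found in 1 of 2 *Arntl* windows, compared with 2.61% of all windows. The exact letters of the cAMP response element were found in none of the 14 windows, compared with 1.79%. The sites are shown with their flanking bases, motif in capitals, on the strand of the gene, because they are the letters through which TEF, REV-ERB and the CLOCK-BMAL1 pair are known to act. The *Per3* sites lie at chr4:151044852-151044881 and chr4:151044805-151044834 (minus), where the neighbouring gene *Camta1* is also annotated, the *Arntl* site at chr7:113207530-113207558 (plus), the *Cry1* site at chr10:85185098-85185125 (minus) and the *Per1* site at chr11:69098772-69098799 (plus).
Per3, first D-box: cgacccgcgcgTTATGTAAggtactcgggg
Per3, second D-box: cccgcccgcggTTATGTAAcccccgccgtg
Arntl, ROR element: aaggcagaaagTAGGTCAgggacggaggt
Cry1, E-box: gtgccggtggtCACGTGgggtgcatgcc
Per1, E-box: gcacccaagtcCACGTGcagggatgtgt
A match describes letters in a window and not binding, and neither *Per3*, which did not meet the main filter, nor *Arntl*, *Cry1* or *Per1* was called.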

How the data were processed

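According to the submitters' notes and the methods, the authors trimmed reads with cutadapt 1.18, mapped them in a single orientation to mm10 RefSeq RNA with Bowtie2 2.2.5 and deposited tag counts per gene symbol, 1 file per library and not normalized. How tags with several matches were treated is not given in the sources used here. Groups and replicate numbers came from the sample titles.

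Counts were analysed in R 4.3.3 with edgeR 4.0.16 (TMM, glmQLFit and glmQLFTest) over all 9334 genes that reached 10 tags or more in 3 or more of 6 libraries, with Benjamini-Hochberg adjustment. The script was tested on simulated data. Standard errors and 95% intervals were derived from the F statistic. Libraries with the same number departed together from the means of their groups (r = 0.231, 0.185 and 0.261 across 5063 genes averaging 30 tags or more). The numbers were therefore also taken as pairs, in a fit with a replicate block that is given where it changed a call. The main fit held no block, as the study's methods name none and the mouse behind each library is not given. The mean r of -0.112 for different numbers follows from centring each group on its own mean and is no separate comparison.

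The clock genes and the other lists (core loop, clock protein regulators, early response, glucocorticoid response and cell type markers) were chosen with earlier results of these data known. All 10 clock genes are named, as are listed genes with an adjusted p under 0.05 and up to 4 further genes of a list by mean tags. Alternatives were RLE or iterative TMM scaling, library size only, DESeq2 1.42.0, other filters, the replicate block, removal of ribosomal genes, thinned counts and each library left out. The removal was also meant for mitochondrial gene symbols, but these held 0% of tags in every library. The test of the replicate number and its DESeq2 forms were added after seeing the data. Positions came from GENCODE mouse release 21 and promoters from RefSeq GRCm38.p6. Markers *Cdh1*, *Cdh5* and *Cldn5* were not analysed here. Some genes of the lists are not reported here.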

Additional observations from a re-analysis of the deposited data

How the results depend on the processing

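The number of clock genes called lower by adjusted p and fold change was 1 in the analysis reported, 2 without a filter on low genes, 2 with the replicate block and 1 to 2 with a library left out. By adjusted p alone it was 1, against 2 without the filter, 3 with the replicate block and 1 to 3 with a library left out. *Tef* was called in all 15 settings. The added calls were *Nr1d1* by both rules and *Nr1d2* by adjusted p alone. Why they depend on the setting was not tested. The count called higher was 0 in every setting. For the replicate number, 1 clock gene was called by edgeR and 0 by DESeq2's likelihood ratio test with or without independent filtering, and the cause was not tested. With that filtering, DESeq2 gave an adjusted p to 3 of the 8 tested clock genes only.

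Signs turned for genes that were not called. With a library left out, log2 fold changes ranged from -0.56 to 0.23 for *Per2*, -0.72 to 0.14 for *Hlf*, -0.073 to 0.15 for *Nono*, -0.51 to 0.47 for *Fkbp5* and -0.072 to 0.33 for *Sgk1*, and that of *Nono* was -0.041 when scaled by library size only. The cause was not tested. The replicate block changed no other call among the clock genes and changed those of *Usp2*, *Egr1*, *Dusp1*, *Zbtb16* and *Col1a2* (adjusted p = 0.140 and, blocked, 0.0128 by edgeR). *Dbp* and *Per3* did not meet the main filter and were not called without it (adjusted p = 0.474 and 0.383 by edgeR).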
